A study of Danio rerio with 4 samples.

Results

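The mitochondrial ribosome genes described here are the protein-coding genes whose symbol begins with mrpl or mrps followed by a number, in RNA from whole zebrafish embryos. The deposited table of 20390 genes holds 74 of them, and 73 reached 10 normalised reads in at least 2 of the 4 libraries and entered the test. The Cre-injected group (2 libraries) came from embryos of the transgenic line bns298 that received Cre by injection at the 1-cell stage, and the uninjected group (2 libraries) from the same line without Cre. In this transgene the heat-inducible hsp70l promoter is followed by a loxP-STOP-loxP cassette, npas4l, a GGGGGLSRS linker, P2A and the mCherry reporter, so that heat induces npas4l after the recombinase Cre has cut out the stop. The npas4l product is a transcription factor needed for endothelial and blood cells. Per the labels' protocols, both groups grew at 28 °C, received a 1 h heat shock at 37 °C and were taken at the stage of 6 somites. No group carries Cre without the transgene, so the effect of npas4l cannot be told apart from those of Cre or of injecting. Whether the replicates are separate clutches is not stated, and the p-values thus reflect the spread among these 4 samples alone, which may be technical.

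Mitochondria make a small set of respiratory chain subunits from their own genome, on a ribosome of their own that descends from that of a bacterial ancestor. Its RNA comes from the mitochondrial genome, whereas all of its proteins are encoded in the nucleus, made in the cytosol and imported. Many of these proteins have a bacterial counterpart and others were added in the mitochondrial lineage; loss of either kind in humans can impair oxidative phosphorylation. The names do not follow the subunits fully: in mammals the proteins of MRPS30 and MRPS18A sit in the large subunit, and the protein once called MRPS36 is now placed in a metabolic enzyme complex rather than in the ribosome. Counted this way, the 73 genes tested hold 47 of the large subunit, 25 of the small subunit and mrps36. Subunit and bacterial counterpart were assigned here from the mammalian complex.

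The libraries summed to 8933474 and 9861419 normalised reads in Cre-injected embryos and to 9093935 and 9479827 in uninjected embryos. Of 27 markers for tissues of a 6-somite embryo, 26 were found and 24 stood at 10 or more in every library. By limma 3 of the 25 markers tested were higher in Cre-injected embryos (lmo2 and etv2 of early blood and vessel, and msgn1 of presomitic mesoderm). Another 4 were lower (krt4 and tp63 of epidermis, he1.1 of hatching gland and sox3 of neural plate). Among all genes tested 6.35% were higher and 6.19% lower. Other markers of these tissues did not pass and lay on both sides. The blood marker gata1a had 28 and 36 with Cre and 68 and 52 without, opposite to lmo2 and etv2. In their own tissues myod1 and pax2a also lay opposite, krt8 overlapped, and tal1, ctslb and sox2 lay on the same side. For etv2 the values were 416 and 490 with Cre and 236 and 144 without, and for krt4 57982 and 66332 with Cre and 104183 and 101126 without. The part of such differences between tissues in the values of the mitochondrial ribosome genes was not tested. Transcript levels of npas4l (listed as CABZ01080135.1) were 710 and 808 in Cre-injected libraries, against 370 and 279 in uninjected libraries. Mitochondrial ribosomal RNA, which weighs on any share of the total, took 11.98% and 16.15% of the Cre-injected totals and 12.35% and 16.38% of the uninjected totals.

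Of the 73 mitochondrial ribosome genes tested, 5 fell in Cre-injected embryos and 0 rose, at an adjusted p under 0.05 by limma on log2(value + 1). Among all 16754 genes tested, 6.19% were called lower and 6.35% higher. The 5 members are 6.85% of the 73, near the background for falls, so the count of falls does not set these genes apart. At an unadjusted p under 0.05, 5 members (6.85%) were higher and 12 (16.4%) lower, against 14.1% and 14.3% of all genes tested. No member kept its call without uninjected replicate 1 or without uninjected replicate 2, and calls over all genes fell as well. When the variance was not allowed to follow the mean no member passed, while all genes gave 30 higher and 68 lower. Leaving out Cre-injected replicate 1 or 2 kept the 5 falls among the lower members. In both of these fits calls grew over members and over all genes alike, so the larger counts do not set the members apart. No member reached a log2 fold change of 1 in either direction, against 9.42% of all genes tested, which include genes of lower values.

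The large-subunit gene mrpl23 (ENSDARG00000045696; chromosome 25, 23777469 to 23815949, plus strand, GRCz11) had 387 and 449 normalised reads in Cre-injected embryos, against 619 and 655 in uninjected embryos. Both Cre-injected libraries lay below both uninjected ones, at a log2 fold change of -0.61 ± 0.13 (SE) and a limma adjusted p of 0.012. Its bacterial counterpart lies at the exit of the tunnel through which the new peptide leaves the ribosome. For mrpl36 (ENSDARG00000070607; chromosome 19, 28284120 to 28290213, plus strand), which encodes another large-subunit protein with a bacterial counterpart, the values were 348 and 340 with Cre and 487 and 479 without. Its replicates were close to each other in both groups, and the log2 fold change was -0.49 ± 0.13 (SE) with a limma adjusted p of 0.034. With equal library totals the call for mrpl36 ended (adjusted p = 0.0517).

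In the small subunit mrps2 fell (ENSDARG00000103198; chromosome 21, 7121942 to 7128064, plus strand), a gene whose human counterpart is needed for mitochondrial translation. It had 120 and 151 normalised reads in Cre-injected embryos and 277 and 192 in uninjected embryos, a log2 fold change of -0.77 ± 0.21 (SE) with a limma adjusted p of 0.034. The groups did not overlap, but the uninjected libraries were far apart, and the log2 fold change was -0.51 without uninjected replicate 1 and -1.04 without uninjected replicate 2. For mrpl42 (ENSDARG00000079391; chromosome 4, 1821637 to 1824836, minus strand), a large-subunit gene specific to mitochondria, the values were 98 and 83 with Cre and 184 and 133 without. Its log2 fold change was -0.79 ± 0.22 (SE) with a limma adjusted p of 0.038, and its uninjected libraries were also apart. The large-subunit gene mrpl15 (ENSDARG00000101306; chromosome 7, 58837286 to 58843193, minus strand), with a bacterial counterpart, stood at 127 and 115 against 220 and 171, a log2 fold change of -0.68 ± 0.19 (SE) with a limma adjusted p of 0.041. Under shrinkage without the robust option mrps2, mrpl42 and mrpl15 missed the threshold, at adjusted p = 0.0577, 0.0576 and 0.0576, and with equal library totals mrpl15 did (0.0506). None of the 5 genes overlaps another listed gene.

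**Figure D1:**
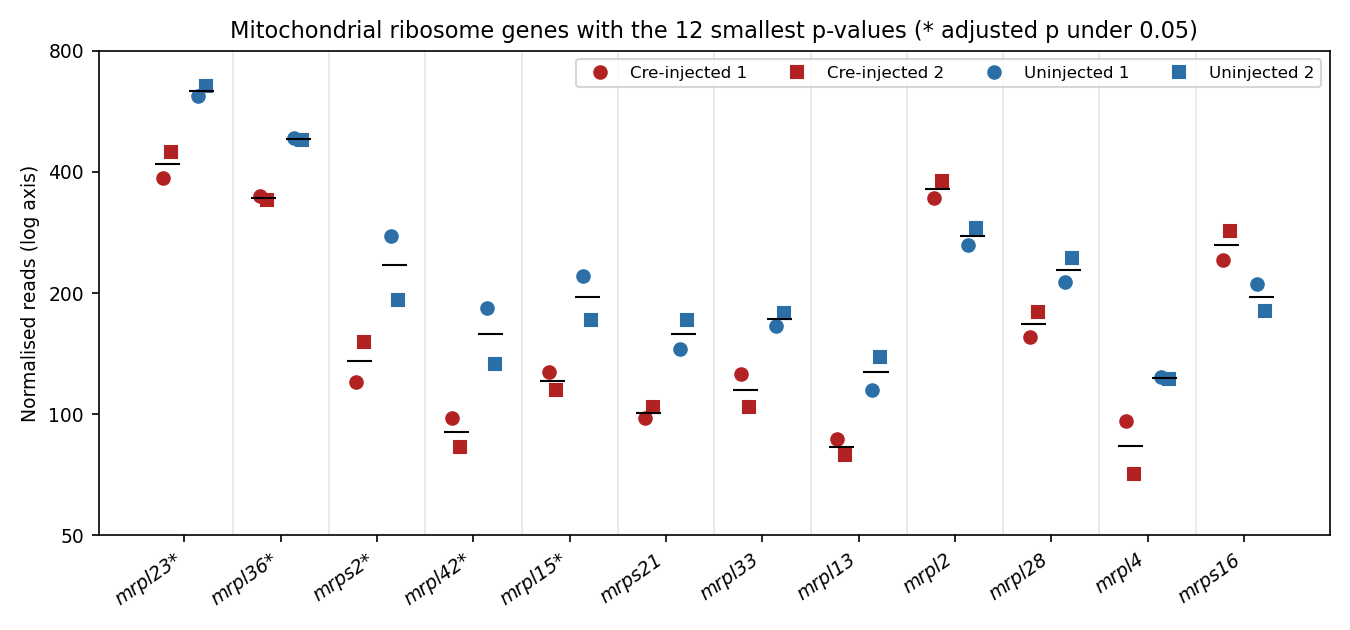
Normalised reads per library (log axis) for the 12 mitochondrial ribosome genes with the smallest p-values, Cre-injected in red and uninjected in blue, with group means as bars. The 5 genes marked with an asterisk passed the test. In all 12 the groups do not overlap, which follows largely from choosing them by p-value on these libraries. Of the 12, 10 lie lower and mrpl2 and mrps16 higher in Cre-injected embryos. Over all 73 genes 24 (32.9%) lie lower and 9 (12.3%) higher without overlap, against 28.8% and 28.0% of all genes tested.

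Just outside the threshold stood mrps21, the small-subunit counterpart of a bacterial protein, with 98 and 104 normalised reads in Cre-injected embryos and 145 and 171 in uninjected embryos (adjusted p = 0.0553 by limma). It passed with only genes of 50 or more in at least 2 libraries (0.0494) and with library totals equalised over the genes other than mitochondrial and structural RNA genes (0.0475). The large-subunit genes mrpl33, mrpl13, mrpl28 and mrpl4 had log2 fold changes of -0.58, -0.60, -0.44 and -0.57, with adjusted p between 0.0691 and 0.12. Higher values that did not pass were those of mrpl2, whose bacterial counterpart is a core protein near the site of peptide bond formation. It had 345 and 379 normalised reads in Cre-injected embryos and 264 and 291 in uninjected embryos (log2 fold change 0.38 ± 0.15 (SE), adjusted p = 0.112). Its locus on chromosome 13 ends 103103 bases before that of npas4l begins, and any link of this distance to the mrpl2 values was not tested. For mrps16, a gene mutated in human mitochondrial disease, the values were 242 and 285 against 211 and 181 (log2 fold change 0.42 ± 0.17 (SE), adjusted p = 0.125). Without Cre-injected replicate 1 the log2 fold change was 0.45 for mrpl2 and 0.54 for mrps16. Without Cre-injected replicate 2 it was 0.31 for mrpl2 and 0.31 for mrps16.

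The stalk of the large subunit, which recruits translation factors, is formed by the proteins of mrpl12 and mrpl10. The mrpl12 values were 573 and 574 in Cre-injected embryos and 481 and 442 in uninjected embryos (log2 fold change 0.31, adjusted p = 0.133). Its anchor mrpl10 had 71 and 76 with Cre and 97 and 90 without (log2 fold change -0.34, adjusted p = 0.348). These stalk genes thus lay on opposite sides of 0 without either passing the test. The 3 relatives of the bacterial S18 protein gave mrps18a 197 and 228 against 257 and 253, mrps18b 134 and 107 against 94 and 159, and mrps18c 191 and 238 against 228 and 216. In the classes used here mrps18c counts as having a bacterial counterpart, and mrps18a and mrps18b count as specific to mitochondria. Only mrps18a, the large-subunit one, had groups that did not overlap, and its adjusted p was 0.308. Of the other large-subunit genes named for a role, mrpl44, which has a fold related to RNase III, stood at 133 and 160 against 198 and 165 (adjusted p = 0.319), and mrps30 at 279 and 263 against 294 and 279 (adjusted p = 0.767). The small-subunit gene mrps28 had 29 and 48 against 48 and 66 (adjusted p = 0.28).

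Values of mrpl58, which in humans encodes a peptidyl-tRNA hydrolase that rescues stalled mitochondrial ribosomes, were 4 and 2 in Cre-injected embryos and 8 and 5 in uninjected embryos. It is the single gene of the 74 that missed the filter and was not tested. Next above it was mrpl52, with 14 and 29 against 18 and 17, followed by mrpl53 (37 and 41 against 35 and 42), mrpl57 (37 and 35 against 40 and 44) and mrps14 (29 and 54 against 37 and 36). The highest values were those of mrps31 (629 and 823 against 552 and 637), mrpl51 (516 and 576 against 644 and 570), mrpl40 (452 and 605 against 577 and 632) and mrpl23. These are reads per gene, not divided by transcript length, so they give no order of transcript abundance. For mrps31, mrpl51 and mrpl40 the adjusted p was 0.247, 0.489 and 0.408.

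The large-subunit genes had a lower median log2 fold change than the small-subunit genes. Of the 47 large-subunit genes 30 had a log2 fold change below 0 and 17 above, with a median of -0.15, whereas of the 25 small-subunit genes 12 lay below 0 and 13 above, with a median of 0.02. Over all genes tested the median was 0. Without uninjected replicate 1 the subunit medians lay closer together, at -0.10 (large) and -0.05 (small). Without uninjected replicate 2 they were -0.15 and 0.04. Both Cre-injected libraries were below both uninjected ones for 18 large-subunit genes and above them for 4; in the small subunit the counts were 6 below and 4 above. Among all genes tested 28.8% lay below and 28.0% above in this way, against 38.3% and 8.51% of the large-subunit genes and 24.0% and 16.0% of the small-subunit genes. The large-subunit genes with a bacterial counterpart (29 genes) had a median of -0.27, and those specific to mitochondria (18 genes) a median of -0.13. In the small subunit the medians were -0.06 (15 genes) and 0.07 (10 genes). Genes are not replicates, so these are descriptions with no test.

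**Figure D2:**
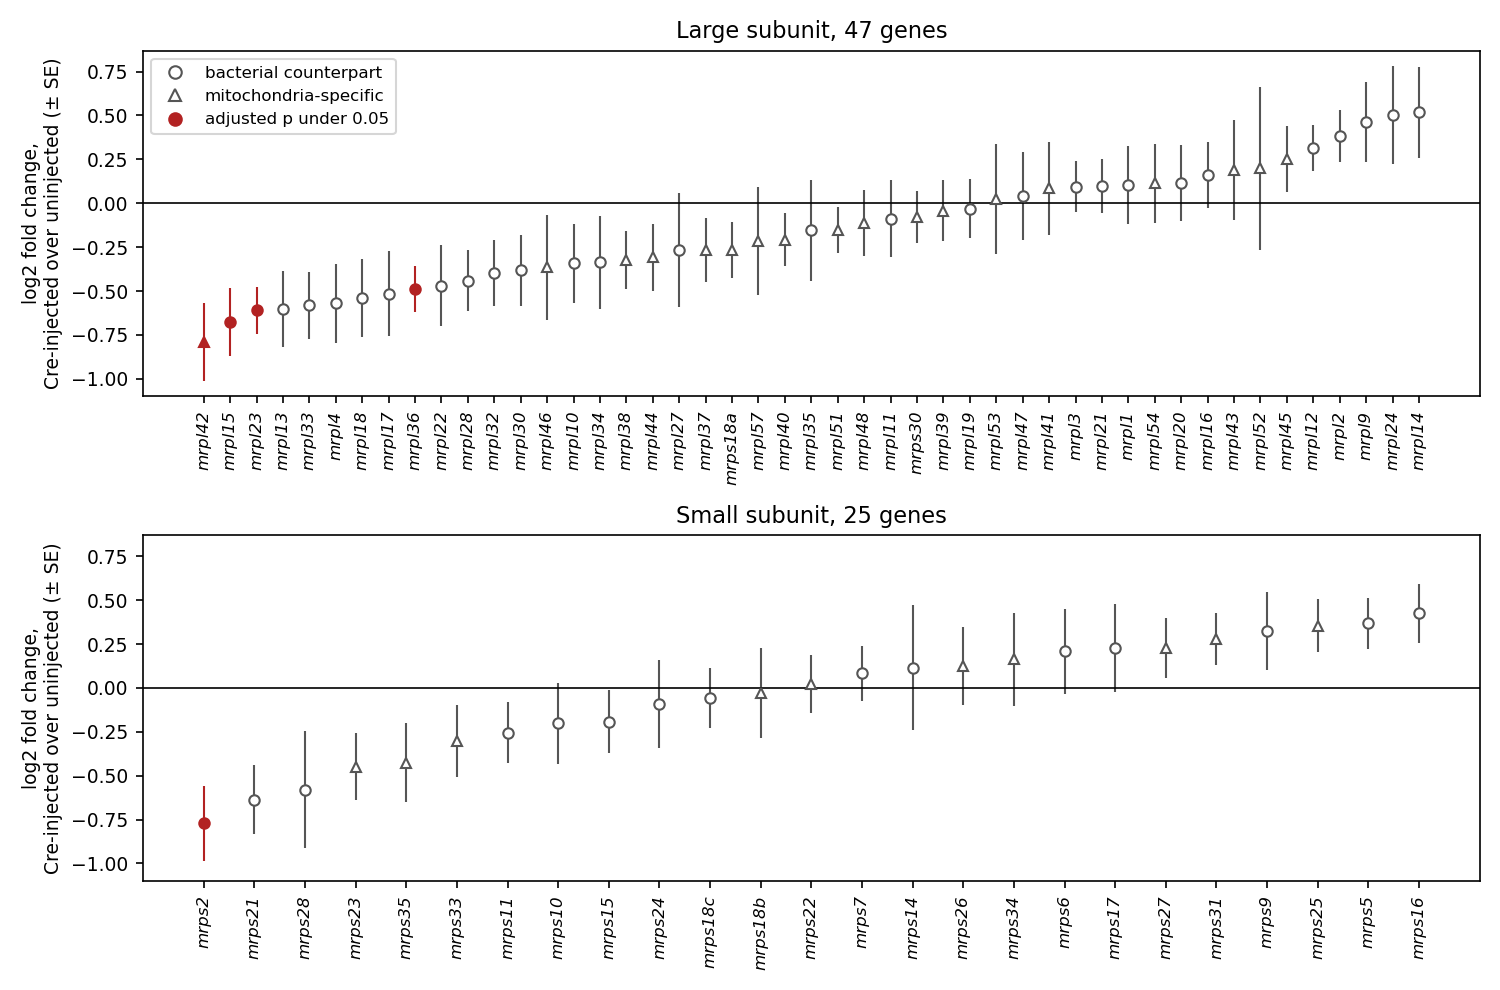
Fitted log2 fold change (Cre-injected over uninjected, bars ± SE) of each large-subunit gene (47, upper) and small-subunit gene (25, lower), ordered by value; circles have a bacterial counterpart, triangles are specific to mitochondria, filled red symbols passed the test, and mrps36 is left out. In the large subunit 30 genes lie below 0, in the small subunit 12.

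Summed over the large-subunit genes, normalised reads came to 7754 and 9098 in Cre-injected embryos and to 9263 and 9247 in uninjected embryos. The small-subunit sums were 4445 and 5185 with Cre and 4591 and 4716 without. Cre-injected replicate 1 was low in both sums, while replicate 2 was near the uninjected large-subunit sums and above both uninjected small-subunit sums. The libraries differ in total, so shares of the nuclear protein-coding reads read differently. By share the large subunit took 0.1011% and 0.1129% with Cre and 0.1203% and 0.1213% without, both Cre-injected libraries lying below. The small subunit took 0.05798% and 0.06435% with Cre and 0.05964% and 0.06185% without, with overlap. The ratio of the large to the small sum was 1.74 and 1.76 in Cre-injected embryos and 2.02 and 1.96 in uninjected embryos, with means of 1.75 ± 0.00724 and 1.99 ± 0.0402 (SD, n = 2 each). Between the Cre-injected replicates the ratio varied less than either sum, and between the uninjected replicates it did not. The groups did not overlap in this ratio. No test was run on it, and the smallest two-sided exact permutation p for 2 libraries against 2 is 0.333. Leaving out the 5 genes that passed, the ratios were 1.57 and 1.61 against 1.80 and 1.73. In whole-embryo RNA, fewer cells of a type and less RNA per cell cannot be told apart.

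**Figure D3:**
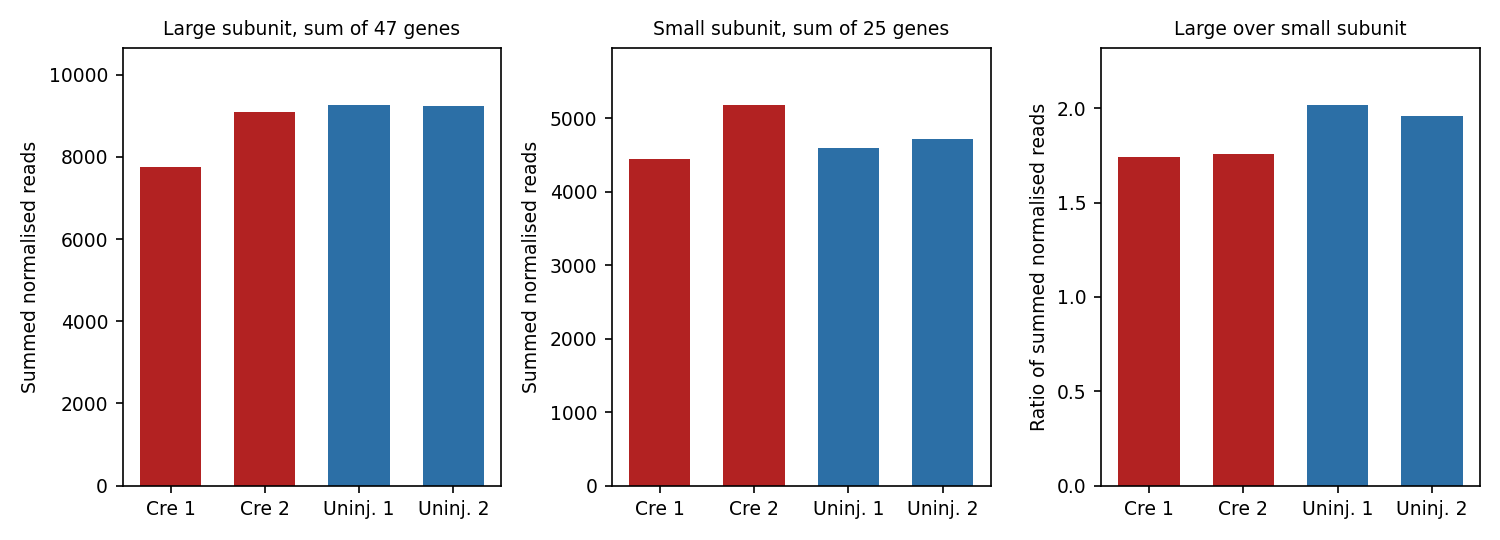
Summed normalised reads of the large-subunit genes (left) and small-subunit genes (middle), and the ratio of these sums (right), as 1 bar per library; bars are single libraries, with no error. The ratio is 1.74 and 1.76 in Cre-injected libraries and 2.02 and 1.96 in uninjected libraries.

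The 2 Cre-injected libraries differed from each other across these genes. Of the 73 members 35 had their lowest value in Cre-injected replicate 1 and 13 in Cre-injected replicate 2, against 15 and 9 in the uninjected replicates. Cre-injected replicate 1 was below replicate 2 for 54 members and above it for 19, with a median difference of 0.21 on the log2 scale (replicate 2 over replicate 1), whereas over all genes tested that median was 0. Between the uninjected replicates 37 members were higher in replicate 1 and 36 in replicate 2. The median log2 fold change of the members, -0.09 in all, was 0.01 when Cre-injected replicate 1 was left out and -0.23 when replicate 2 was. For the large subunit it stayed below 0 in both cases, at -0.07 and -0.33, and for the small subunit it was 0.10 and -0.11.

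Further proteins of the mitochondrial ribosome carry other names or stand under clone names. Of 5 such genes with established names, gadd45gip1, which encodes a large-subunit protein, rose. It had 183 and 232 normalised reads in Cre-injected embryos and 130 and 113 in uninjected embryos (log2 fold change 0.76 ± 0.19 (SE), limma adjusted p = 0.0243). The call ended without Cre-injected replicate 2 (adjusted p = 0.0539) and without either uninjected library (0.105 and 0.212). The small-subunit genes dap3, ptcd3, chchd1 and aurkaip1 had log2 fold changes of 0.00, 0.26, -0.11 and -0.10, with adjusted p of 0.323 or more. A list of 5 genes is too short to set 1 call against the 6.35% higher among all genes tested. Ensembl identifiers gave mrpl49 (61 and 91 against 111 and 91) and mrps12 (82 and 94 against 127 and 95), and neither passed.

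The 2 RNAs of the mitochondrial ribosome differed in their values. For mt-rnr1, the small-subunit RNA, the libraries held 32556 and 50464 normalised reads with Cre and 56350 and 64315 without (log2 fold change -0.57 ± 0.17 (SE), limma adjusted p = 0.0531). For mt-rnr2, the large-subunit RNA, they held 1037425 and 1541781 with Cre and 1066700 and 1488659 without (log2 fold change 0.01 ± 0.20 (SE)). The groups do not overlap for mt-rnr1 and overlap for mt-rnr2. As a percentage of mt-rnr2, mt-rnr1 came to 3.14 and 3.27 in Cre-injected embryos and to 5.28 and 4.32 in uninjected embryos. These percentages compare reads and do not give the relative amounts of the 2 RNAs in the embryo. The part of library preparation in them was not tested.

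Among the 13 mitochondrial genes whose messages this ribosome translates, mt-atp6, for a subunit of ATP synthase, fell. It had 6127 and 8404 normalised reads with Cre and 9126 and 11822 without (log2 fold change -0.53 ± 0.16 (SE), limma adjusted p = 0.0464). That call ended when any of the 4 libraries was left out, with adjusted p between 0.13 and 0.595. For mt-cyb, which encodes cytochrome b, the values were 7171 and 8928 against 9712 and 15016 (adjusted p = 0.0659), and the other 11 did not pass. For both genes replicate 2 was above replicate 1 in each group. With 13 genes, 1 call is too few to set against the 6.19% lower among all genes tested.

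For genes that build or serve the mitochondrial ribosome, lists of 15 to 26 genes held 0 or 1 call each, too few to set against the 6.19% lower and 6.35% higher among all genes. Of 26 assembly and rRNA processing genes tested, mpv17l2, whose human counterpart binds the large subunit during assembly, fell, with 265 and 317 normalised reads in Cre-injected embryos and 392 and 462 in uninjected embryos (log2 fold change -0.55 ± 0.16 (SE), limma adjusted p = 0.0375). Its call was lost without uninjected replicate 1 (0.142) or 2 (0.354). None of these 26 rose, 2 of them having an unadjusted p under 0.05 for a rise and 2 for a fall. By limma 0 of 16 mitochondrial translation factor genes and 0 of 15 mitochondrial tRNA synthetase genes passed. Of these, 0 and 1 had an unadjusted p under 0.05. Over all genes tested 14.1% had an unadjusted p under 0.05 for a rise and 14.3% for a fall. Lists this short are not set against those shares. Among 16 genes for regulators of mitochondrial biogenesis and mitochondrial DNA maintenance, tfam fell, which encodes a protein that packages mitochondrial DNA and starts its transcription. It stood at 364 and 434 with Cre and at 620 and 590 without (log2 fold change -0.60 ± 0.14 (SE), limma adjusted p = 0.0146), and lost the call without uninjected replicate 1 (0.2) or 2 (0.144). The other 15 did not pass, and over the 16 the median log2 fold change was 0.01. Both Cre-injected libraries lay above both uninjected ones for 6 (37.5%) and below them for 4 (25%). Over all genes tested these shares were 28.0% and 28.8%, and 16 genes are too few to set against them.

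Set beside these, 30 of 81 cytosolic ribosomal protein genes (37.0%) were lower and 0 higher by limma, with a median log2 fold change of -0.31. Of 98 nuclear genes named for respiratory chain complexes and their assembly, 12 (12.2%) were lower and 0 higher, with a median of -0.26. Among all genes tested 6.19% were lower and 6.35% higher. By its median of -0.15 the mitochondrial large subunit lay between these lists and all genes (median 0). Its 4 lower of 47 (8.51%) are near the share of all genes, so that count does not set it apart. For the cytosolic genes 0 had an unadjusted p under 0.05 for a rise, and for the respiratory chain genes 2 (2.04%), against 14.1% of all genes tested. For a fall 44 (54.3%) and 26 (26.5%) did, against 14.3%. In the cytosolic list rpl7, a large-subunit protein gene, had 2235 and 2279 with Cre and 3844 and 3833 without. In the respiratory chain list cox5aa, for a subunit of cytochrome c oxidase, had 518 and 518 with Cre and 915 and 848 without. Both lists held fewer lower genes when an uninjected library was left out and more when a Cre-injected library was. Calls over all genes tested fell and grew in the same fits, so these changes do not set the lists apart. Without Cre-injected replicate 1 some genes of both lists were also called higher. Whether the lists differ from each other was not tested.

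**Figure D4:**
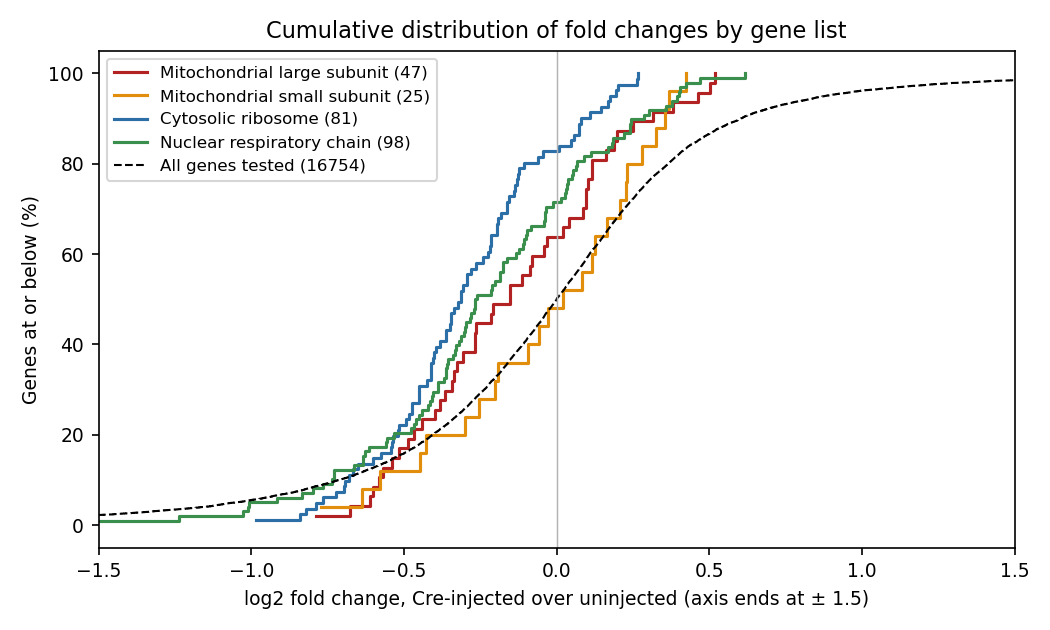
Cumulative share of genes (%) at or below each log2 fold change (Cre-injected over uninjected) for large-subunit genes (47), small-subunit genes (25), cytosolic ribosomal protein genes (81), nuclear respiratory chain genes (98) and all genes tested (16754). The large-subunit curve crosses 50% at -0.15 and the small-subunit curve at 0.02, beside -0.31 for the cytosolic ribosome.

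The 74 genes are spread over 22 of the 25 chromosomes. A head-to-head neighbour is here a listed gene on the other strand that does not overlap and whose start lies within 1000 bases. Pairs that overlap are counted as overlaps instead. Such a neighbour was present for 23 of the 74 (31.1%), against 7.42% of 16244 tested protein-coding genes. Among these, mrpl46 and mrps11 on chromosome 7 are each other's neighbour with 220 bases between them, mrpl36 starts beside ndufs6 and mrpl47 beside ndufb5, both for complex I subunits, and mrpl20 beside sdhb of complex II. None of the 23 partners, which include the members mrpl46 and mrps11, passed the test in either direction. Among all genes tested 12.5% did, and 23 partners are too few to set against that share. Of the 5 members that fell, 2 have such a partner: ndufs6 had a log2 fold change of 0.39 beside -0.49 for mrpl36, and lypla1 had -1.12 (adjusted p = 0.145 by limma) beside -0.68 for mrpl15. For the pair on chromosome 7, mrpl46 and mrps11 had -0.37 and -0.25. On the other strand 12 of the 74 overlap a listed gene, among them mrpl33, mrpl22 and mrpl9, and reads from such partners are separable only if counting used strand, a setting not given in the sources used here.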

How the data were processed

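Per the labels' protocols, stranded libraries were prepared from 10 ng of whole-embryo total RNA and read once over 75 bases. The deposited score per gene and library appears, from the values alone, to be a read count scaled by the authors with a size factor and then rounded. Whole numbers are skipped or overfilled at regular steps. Among factors near 1, the best match to these steps was 0.983 and 0.985 (Cre-injected) and 1.02 and 1.03 (uninjected), with correlations of 0.447 to 0.576. No factor further from 1 was searched, so this match cannot show how close the values are to reads. The submitters' processing notes name, without roles, GRCz11, DESeq2 1.14.1, featureCounts 1.6.0, STAR 2.6.0c and Trimmomatic 0.36.

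Because the values are normalised, the test was limma 3.58.1 (R 4.3.3) on log2(value + 1), which understates changes of low genes, with robust shrinkage and a trend of variance on mean, on all 16754 genes of 10 or more in at least 2 libraries. Benjamini-Hochberg adjustment ran over all of them, with a threshold of 0.05, and the procedure was tested on simulated data. That simulation gave both groups, and all genes of similar mean, the same spread. It therefore cannot show how the procedure behaves where the spread differs between groups or genes. Library groups follow the sample titles. All members were counted. Those named were the members past the threshold, those with the 12 smallest p-values, the 4 highest and 4 lowest in value, 10 with a named role and, per list, up to 4 that passed. Others, such as mrps36 and the neighbouring genes, were named after their values were seen. Members and lists were chosen with earlier results of these data known; S6 kinase genes and rps19bp1 were dropped from the cytosolic list after its matches were seen. List genes were matched by symbol, Ensembl identifier or synonym, and the mitochondrial rRNAs by length through RefSeq (GRCz12tu). Alternatives were scalings, filters, pseudocounts, shrinkage, leaving out each library and a replicate block. No sequences are shown. Figures used matplotlib 3.10.9.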

Additional observations from a re-analysis of the deposited data

How the results depend on the processing

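With 2 libraries a group, the calls depended on which library was left out and on how the spread was shared across genes. Without an uninjected library the spread comes from the Cre-injected pair alone. Over all genes tested the median absolute log2 difference between replicates was 0.248 for Cre-injected and 0.176 for uninjected libraries. The log2 fold change of mrpl36 was -0.48 and -0.50 without uninjected replicate 1 and 2, beside -0.49 in the main fit. Of the single-gene values under alternatives, 500 kept direction and side of the threshold, 59 lost the call, 12 gained one and 9 changed sign. These values mix members with genes of the other lists, and many belong to genes that had no call to lose. They thus do not measure how stable the calls are. The count of lower members was 3 with equal library totals, 2 under non-robust shrinkage and 0 with no mean-variance trend, where all genes gave 30 higher and 68 lower. With no trend 0 genes were called lower among assembly, biogenesis, cytosolic ribosome, respiratory chain and mitochondrial messenger genes, and 0 higher among mitoribosome genes of other names; non-robust shrinkage gave 0 lower assembly and 0 lower mitochondrial messenger genes. Lower mitochondrial messenger genes numbered 2 with equal totals, upper-quartile scaling and totals equalised leaving out mitochondrial and structural RNA, and 0 with a minimum of 50. The cause was not tested.

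Leaving out 1 library at a time (the lone sample's spread is then taken from the other group) gave 0 to 10 lower and 0 to 7 higher members, and 210 to 1871 lower and 228 to 2064 higher genes in all. The median log2 fold change ranged from -0.23 to 0.011 for members, from -0.33 to -0.073 for the large subunit and from -0.11 to 0.10 for the small subunit. The lists gave 0 to 1 higher (other names), 0 to 1 higher and 0 to 4 lower (assembly), 0 to 1 higher (synthetases), 0 to 1 lower (mitochondrial messengers), 0 to 1 higher and 0 to 2 lower (biogenesis), 0 to 8 higher and 2 to 56 lower (cytosolic ribosome), and 0 to 4 higher and 0 to 23 lower (respiratory chain). The log2 difference in the large over small ratio ranged from -0.21 to -0.16, and was -0.15 without the 5 members that passed, an alternative chosen after seeing the data. Log2 fold changes that took either sign ranged from -0.41 to 0.35 for mrps18b, -0.22 to 0.10 for mrps18c, -0.30 to 0.70 for mrpl52, -0.11 to 0.15 for mrpl53, -0.32 to 0.55 for mrps14 and -0.42 to 0.0027 for mrpl40; mrpl53 was also -0.016 when totals were equalised leaving out mitochondrial and structural RNA. Under that scaling the small-subunit median was -0.02.

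Replicate numbers are shared between the groups, and the labels do not say whether they mark a pairing. Same-numbered libraries' deviations correlated at r = -0.02 over members and -0.03 over all genes, which cannot exclude a pairing seen in fewer genes. Mitochondrial ribosomal RNA took 11.98% (Cre-injected) and 12.35% (uninjected) of the totals in replicate 1, and 16.15% and 16.38% in replicate 2. Whether the replicates are paired was not tested. With the replicate block 5 members were lower and 0 higher, the same genes, and 2 mitochondrial messenger genes were lower.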
